A study of Mus musculus with 7 samples.

Results

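The replication-dependent histone genes are the clustered genes that supply the core histones H2A, H2B, H3 and H4 and the linker histone H1. They were taken here as every gene whose symbol in GENCODE release M21 starts with Hist1h, Hist2h, Hist3h or Hist4h. The annotation holds 70 such genes, and 68 of them had a value, among 29686 genes with values in all. These 68 were 6 H1, 20 H2A, 17 H2B, 12 H3 and 13 H4 genes, and 3 of them (Hist1h2aj, Hist1h2al and Hist3h2bb-ps) are annotated as pseudogenes. No measured exon was matched to Hist1h2bh and Hist1h2bm, which were not analysed here. Of the 68 genes, 54 lie on chromosome 13, 10 on chromosome 3, 3 on chromosome 11 and 1 on chromosome 6. Values are RPKM, the reads per kilobase of exon per megaread, averaged over the exons of a gene with their lengths as weights.

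RNA was sequenced in 7 mouse cell populations from a study that followed fibroblasts turned into neural stem cells (NSC) with Oct4, Sox2, Klf4 and Myc (OSKM), each population being 1 library. Mouse embryonic fibroblasts (MEF) and induced pluripotent stem cells (iPSC) both carried the strain label A12 (Mbd3 flox/-), so both hold 1 floxed and 1 deleted Mbd3 allele. The day 6 cells and both OSKM NSC populations were B6/129 and carried Rosa26-TdTomato from a B6 female and Col1a-OSKM from a 129 male. Nanog-CreER reporter MEFs received Dox, which drives OSKM, and 4OHT, which activates CreER, from day 1 to day 6 in knock-out DMEM with KSR and FBS, and tdTomato-positive cells were sorted at the end of day 6 without feeders. The OSKM NSC, Tomato-positive or Tomato-negative, had been subcloned mechanically and were also free of feeders. Brain NSC came from BDF2 embryos at E12.5 in one label and E13.5 in another, and were grown with bFGF and EGF. The embryonic stem cells (ESC) were line v6.5 with MEF feeders, while a question mark stands behind the same feeder remark for the iPSC. With 1 library in each group there is no replicate error and no test. Strain, culture medium, sorting and library cannot be told apart from the cell population.

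Depth recovered from the steps of the values ran from 19 to 58 megareads per library. The 4 fibroblast markers (Col1a1, Col1a2, Thy1, Postn) summed to 21362 RPKM in MEF, 1403 in the feeder-grown ESC and 47.1 on day 6. The 4 myeloid markers summed to 2904 RPKM in MEF and to 6.98 to 162 elsewhere. The 4 pluripotency markers reached 975 RPKM on day 6 against 6322 in iPSC and 8346 in ESC. Of the day 6 sum, 886 RPKM was Pou5f1, the gene of Oct4, which is among the OSKM factors driven by Dox. Nanog had 67.2 RPKM on day 6 against 772 in iPSC and 765 in ESC, and Dppa5a and Zfp42 had 12.3 and 9.62 on day 6. The 4 neural stem markers stood at 3060 to 9807 RPKM in the NSC libraries. In bulk RNA, fewer cells of a kind and less RNA per cell cannot be told apart.

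Replication-dependent histone genes are transcribed in S phase, when new DNA has to be packed into nucleosomes. Their mRNAs have no introns in the usual case and end in a conserved stem-loop instead of a poly(A) tail. The stem-loop is bound by Slbp, and the cut that makes the end is guided by the U7 snRNP. A few of these genes also give polyadenylated mRNAs in cells that have left the cycle, so libraries selected for poly(A) tails see only part of the family. The series' design text describes the libraries as poly RNA-seq.

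The 3′ ends of the genes that the results turn on are shown first, because the stem-loop is the element that sets these mRNAs apart. The bases of the stem-loop are in capitals, with up to 6 bases on each side, from the GENCODE transcripts (GRCm38, the mm10 build).
Hist1h2ao: aaaaaaGGCTCTTTTCAGAGCCatccac
Hist1h2ap: aaaaaaGGCTCTTTTCAGAGCCatc
Hist1h2ag: aacaaaGGCTCTTTTCAGAGCCacctaa
Hist2h2ac: caaaaaGGCTCTTTTTAGAGCCaccaaa
Hist1h2bb: cccaaaGGCTCTTTTAAGAGCCacccac
Hist1h2bj: tccaaaGGCTCTTTTCAGAGCCacgcac
Hist3h2ba: cccaaaGGCTCTTTTCAGAGCCaccttc
Hist1h1e: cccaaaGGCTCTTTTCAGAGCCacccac
Hist1h3d: cccaaaGGCTCTTTTCAGAGCCaccccc
Hist1h4d: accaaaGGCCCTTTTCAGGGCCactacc
The windows lie at chr13:21810892-21810919 (plus strand), chr13:21833026-21833050 (minus), chr13:22042477-22042504 (minus), chr3:96220412-96220439 (minus), chr13:23747197-23747224 (plus), chr13:22043632-22043659 (plus), chr11:58949343-58949370 (plus), chr13:23621776-23621803 (minus), chr13:23576238-23576265 (plus) and chr13:23581944-23581971 (plus), each in the 3′ UTR. The search used the histone stem-loop consensus, 16 bases with a loop of 4, on the sense strand. Of 67 protein-coding genes of the family, 43 held it in their longest transcript, 21 to 58 bases after the stop codon with a median of 31. Only 0.0918% of the 58797 protein-coding transcripts in the annotation held it. The same 16 bases as in Hist1h2ao stood in 25 genes of the H1, H2A, H2B and H3 classes, and all 11 H4 genes with a match had other stem letters, as in Hist1h4d. Of the 24 coding genes without a match, 15 have models that end within 30 bases of the stop codon, so that the search could not see their 3′ end.

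Many H2A genes share long coding stretches, of which 60 bases are shown for 5 genes because such copies can share reads (coding positions 178 to 237, for Hist1h2ao at chr13:21810644-21810703 on the plus strand). Capitals mark bases that differ from Hist1h2ao.
Hist1h2ao: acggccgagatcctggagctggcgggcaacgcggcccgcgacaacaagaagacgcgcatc
Hist2h2ab: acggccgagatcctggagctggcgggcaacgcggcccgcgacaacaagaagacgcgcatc
Hist1h2ak: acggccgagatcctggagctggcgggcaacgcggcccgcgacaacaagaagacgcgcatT
Hist1h2aa: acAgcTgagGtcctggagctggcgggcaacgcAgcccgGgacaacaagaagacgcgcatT
Hist3h2a: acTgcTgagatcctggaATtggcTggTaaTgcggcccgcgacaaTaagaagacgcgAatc
This stretch was chosen as the 60-base window of the Hist1h2ao coding sequence found whole in the most H2A genes. That number was 16 of 20, so it is the highest for such a window and not a typical one. Over the whole coding sequence Hist1h2ap was 100% identical to Hist1h2ao, Hist1h2ag 99.2%, Hist2h2aa1 91.3%, Hist3h2a 88.5%, Hist2h2ab 83.5% and Hist1h2aa 81.7%. The 18 coding H2A genes encode 9 distinct proteins, and 9 of the genes encode the same one. All 13 H4 genes encode a single protein. Reads from such copies can be placed on several genes, so a value for 1 copy is uncertain and the sum over copies can count a read more than once. Hist1h2ai and its neighbour Hist1h2aj kept a ratio of 0.992 in all 7 libraries, and Hist1h2ao and Hist1h2ap stayed between 1.08 and 1.35. The longest first exons of Hist1h2bq and Hist1h2br held 293 reads each in brain NSC and 125 each in ESC. Elsewhere they were not equal, with 365 and 367 in MEF, 733 and 747 on day 6 and 161 and 188 in Tomato-negative OSKM NSC. Equal or near-equal numbers are what reads counted on both copies give, so the sums below have to be read as holding repeated reads.

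On day 6 the H2A genes stood far above every other library, while the other 4 classes moved by much less. The summed value of all 68 genes was 21138 RPKM on day 6 and 230 in MEF, while ESC had 142, iPSC 252, brain NSC 266 and the Tomato-positive and Tomato-negative OSKM NSC 257 and 266. The day 6 library was the high one, and the other 6 lay within a narrow range. H2A genes made up 96.9% of the day 6 sum and 5.88% to 26.4% of the sum elsewhere. H2B was the largest class in each of the other 6 libraries, at 49.4% to 65.8%. Against MEF the class sums on day 6 were 776 times as high for H2A, 7.63 times for H4, 6.77 times for H3, 2.71 times for H2B and 2.40 times for H1. Against iPSC the H2A sum was 308 times as high and against ESC 2458 times. The family took 1.34% of the summed RPKM of all genes on day 6 and 0.00726% to 0.0207% in the other libraries.

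**Figure D1:**
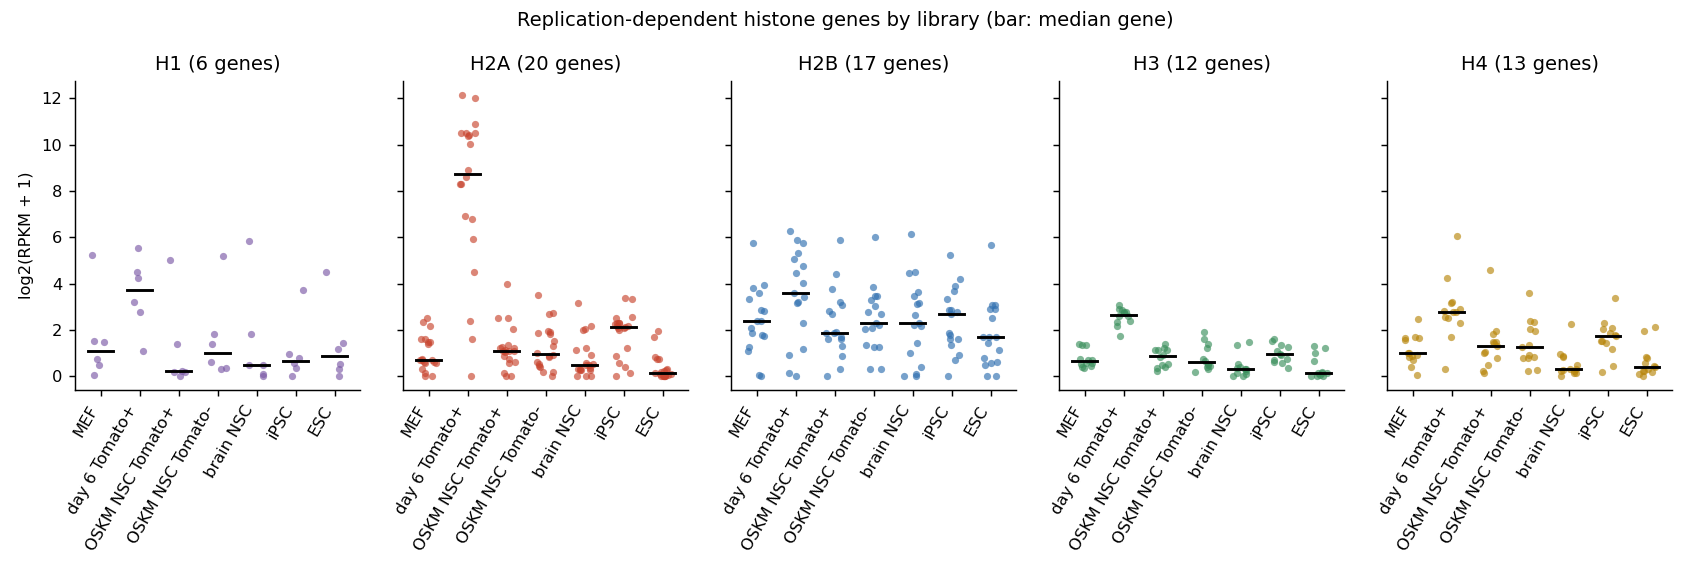
Each point is 1 gene and each black bar the median gene of its class; the vertical axis is log2(RPKM + 1) and the horizontal axis the library. The H2A panel has a median of 432 RPKM on day 6 and at most 3.41 RPKM elsewhere, while the other classes stay under 76 RPKM.

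**Figure D2:**
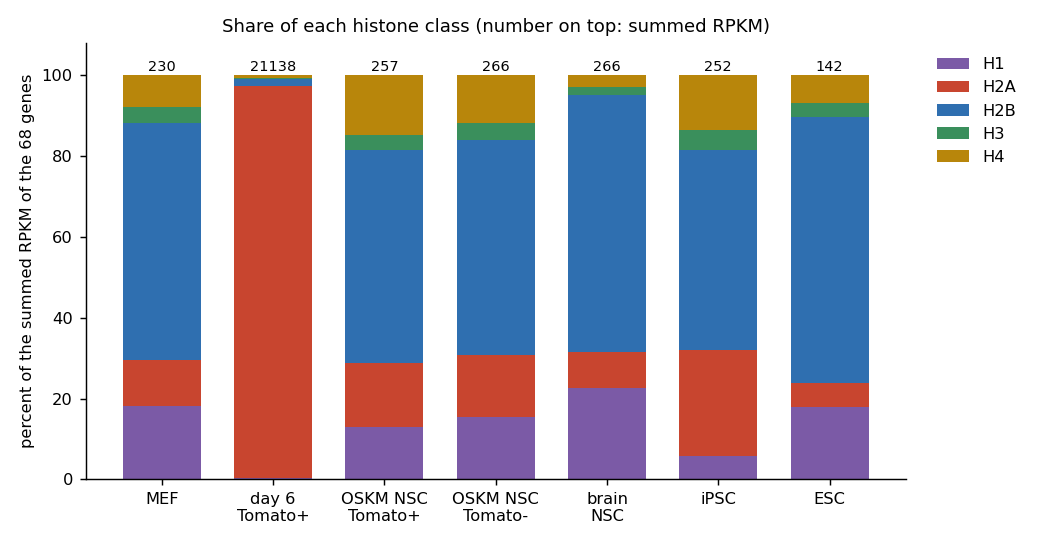
Bars give the percent of the summed RPKM of the 68 genes held by each class in each library, and the number on top is that sum. H2A fills 96.9% of the day 6 bar, and H2B is the largest class in the other 6.

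Gene by gene, day 6 exceeded MEF by 4-fold or more in 33 of 62 tested genes and fell below it by 4-fold in none, where 8.23% of all tested genes were higher and 16.1% were lower. A gene counts as tested when it reached 2 RPKM in at least 1 compared library, and ratios are log2((a + 1)/(b + 1)) of RPKM. By class the higher genes were 17 of 19 H2A, 4 of 5 H1, 5 of 12 H4, 4 of 12 H3 and 3 of 14 H2B. The filter bears on this count, since 40 of the 62 genes reached 2 RPKM only on day 6. Among the 22 that reached it in MEF, 6 were 4-fold higher on day 6 and 18 had a ratio above 0. The median level over all 68 genes was 1.07 RPKM in MEF and 8.13 RPKM on day 6. Just past the threshold were Hist1h4c and Hist1h1d at log2 ratios of 2.02 and 2.04, and just short of it Hist1h3b and Hist1h3a at 1.91 and 1.88.

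H2A is the partner of H2B in the dimers that flank the H3-H4 tetramer within the nucleosome core. Hist1h2ao was measured at 4498 RPKM on day 6 and 2.04 in MEF, while ESC had 0.254, iPSC 3.48, brain NSC 0.231 and the Tomato-positive and Tomato-negative OSKM NSC 1.43 and 2.78. Only the day 6 library was high, where the gene ranked 20 of 29686. This corresponds to 99326 reads on day 6 and 44 in MEF, a ratio of 2208 at equal depth (95% exact interval 1640 to 3040, counting error only). Hist1h2ap followed with 4150 RPKM on day 6 (rank 24) against 0.188 to 3.19 in the other libraries. Hist1h2ag reached 1888 RPKM on day 6 and 0.472 in MEF, while ESC had 0, iPSC 3.33, brain NSC 0.236 and the Tomato-positive and Tomato-negative OSKM NSC 1.12 and 0.758. In all 3 genes the next highest library was iPSC, at under 4 RPKM. Next on day 6 were Hist1h2aj (1466 RPKM), Hist1h2ab (1459), Hist1h2ai (1453), Hist1h2ah (1378), Hist1h2ad (1340) and Hist1h2ae (1031), all at 0.505 to 1.75 RPKM in MEF. A lower tier held Hist1h2af (481 RPKM on day 6), Hist1h2an (383), Hist1h2ac (314), Hist1h2ak (313), Hist2h2aa1 (120), Hist2h2aa2 (110) and Hist1h2al (60.4). RPKM falls with exon length, and Hist1h2ac held 35844 day 6 reads over 2482 bases. Hist1h2ad held 35252 over 572 bases and Hist1h2ae 33390 over 704, so by reads Hist1h2ac was not below these 2 genes. The 3 H2A genes of chromosomes 3 and 11 outside the lower tier had smaller day 6 values. Hist2h2ac was at 21.9 RPKM (0.256 in MEF), Hist3h2a at 4.14 (4.69 in MEF) and Hist2h2ab at 2.06 (0 in MEF). Hist2h2ac was still 4-fold higher on day 6, on 524 reads against 6 in MEF. Hist1h2aa, a testis H2A gene, was at 0 in all 7 libraries, which allows up to 3 reads in each.

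The H2A genes were also grouped by the percent of a transcript's 50-base words that Hist1h2ao also holds. This percent falls as a transcript gets longer outside the shared part, so it does not measure coding likeness. Hist1h2ac at 10.8% (2482 bases) and Hist1h2ae at 30.1% (704 bases) have coding sequences 98.7% and 98.5% identical to that of Hist1h2ao. For Hist1h2ak at 43.3% the coding identity is 96.9%. The 11 H2A genes above 40% had 313 to 4498 RPKM on day 6 with a median of 1453. The 4 genes between 10% and 40% had 110 to 1031 RPKM, and the 5 genes under 10% had 0 to 60.4 RPKM. Single genes departed from this order, since Hist1h2ae at 30.1% had more than Hist1h2an at 64.2%, Hist1h2af at 59.1% and Hist1h2ak at 43.3%. In MEF the same 3 groups had medians of 0.628, 2.08 and 0.256 RPKM. No H1, H2B, H3 or H4 gene shared a 50-base word with Hist1h2ao. These genes share reads, so the order is a description and not 20 separate measurements. Gm11336, an unprocessed pseudogene of chromosome 13 that lies outside the family by its name, shared 52.6% of its words with Hist1h2ao. It was singled out after its values were seen, at 1311 RPKM on day 6 and 0.532 in MEF, while ESC had 0, iPSC 1.55, brain NSC 0.333 and the Tomato-positive and Tomato-negative OSKM NSC 0.945 and 0.499. Its day 6 value thus lay within the range of the H2A genes above 40%. By contrast H2afx, the H2A variant that is phosphorylated at DNA breaks, shared 6.14% and had 90.3 RPKM on day 6 between 32.7 in MEF and 192 in iPSC.

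**Figure D3:**
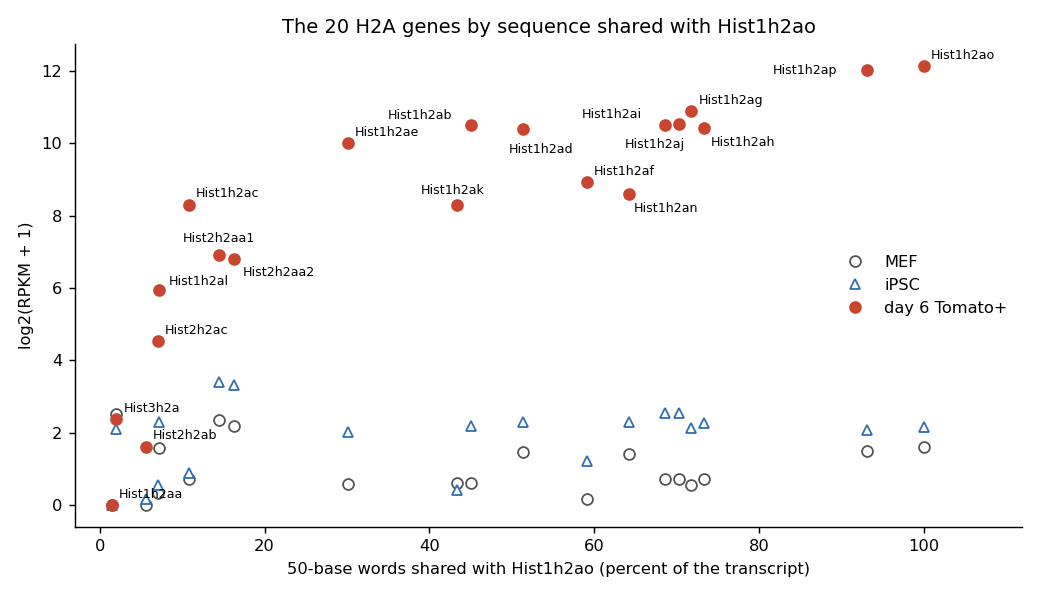
The 20 H2A genes by the percent of their 50-base words that Hist1h2ao holds (horizontal axis) and by log2(RPKM + 1) (vertical axis) in day 6, MEF and iPSC libraries. Filled day 6 points lie between 0 RPKM for Hist1h2aa at the left and 4498 RPKM for Hist1h2ao at the right, with Hist1h2ae above several genes to its right, while the open MEF and iPSC symbols stay under 10 RPKM.

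H2B completes the dimer with H2A, and 13 H2A genes with values lie head to head with an H2B gene, their starts 172 to 305 bases apart, so that both promoters lie in the same short interval. In these pairs the H2A gene had the larger log2 ratio of day 6 to MEF in 11 of 13. The H2A partners had a median ratio of 8.93 (range -0.15 to 10.53) and the H2B partners of 1.11 (-0.67 to 2.06). At 4-fold, 11 H2A partners and 1 H2B partner were higher on day 6, beside 8.23% of all tested genes. A single H2B partner among 13 is close to that share. The ratios of 0.72, 0.59 and 1.65 for Hist1h2bq, Hist1h2br and Hist1h2bp average exons that went opposite ways from MEF to day 6. First exons of Hist1h2bq rose from 1.63 to 19.8 RPKM and from 19.9 to 39.2. A later exon fell from 9.66 to 0. For Hist1h2br, a first exon rose from 2.27 to 8.79 RPKM and a later one fell from 11.7 to 0. For Hist1h2bp these were 4.54 to 19.4 and 3.51 to 0.114. Hist1h2ag and Hist1h2bj, 269 bases apart, went from 0.472 to 1888 RPKM and from 4.27 to 20.9 RPKM. Their ratios were 10.33 and 2.06. Hist1h2ai and Hist1h2bl, 278 bases apart, went in opposite directions, from 0.626 to 1453 RPKM and from 13.1 to 7.82 RPKM. The pairs without this pattern were Hist1h2aa with Hist1h2ba, whose H2A gene was at 0, and Hist3h2a with Hist3h2bb-ps, with ratios of -0.15 and -0.07.

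**Figure D4:**
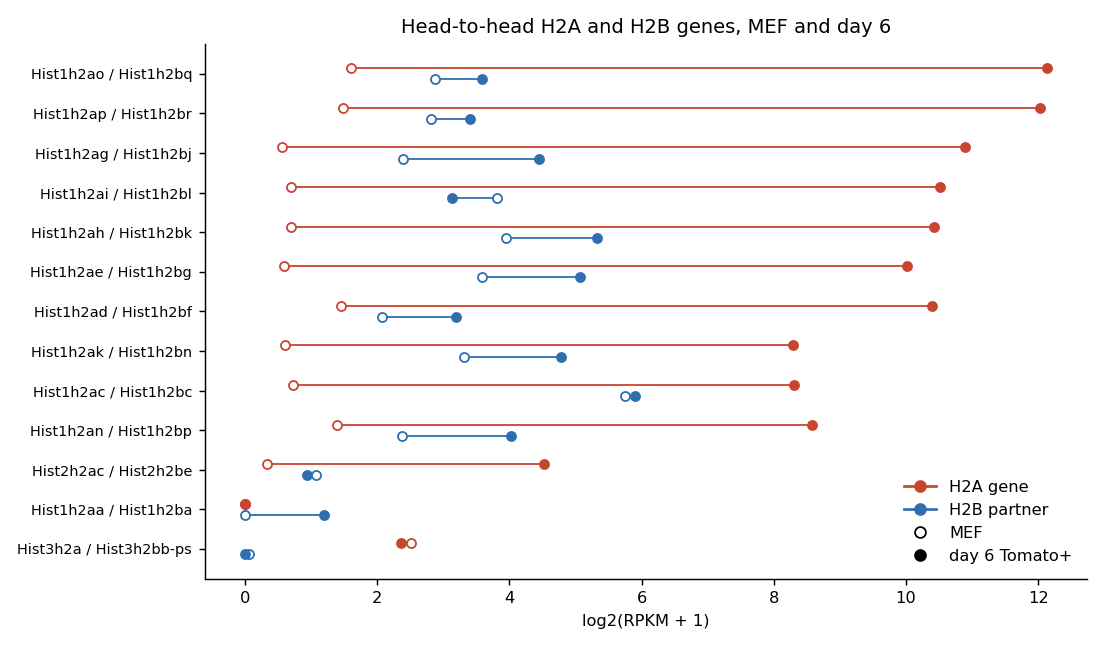
Log2(RPKM + 1) of the 13 head-to-head pairs in MEF (open) and on day 6 (filled), H2A genes in red and H2B partners in blue. The red lines span up to 10.53 log2 units and the longest blue line spans 2.06.

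Most of the interval between Hist1h2ag and Hist1h2bj is shown because both genes start at it and differed in their day 6 values. The bases are the RefSeq promoter of Hist1h2ag, 250 bases before to 50 after its start (GRCm38.p6, chr13:22042900-22043199, minus strand). The interval itself is chr13:22042945-22043213, so the printed bases run into Hist1h2ag and stop short of Hist1h2bj. CCAAT boxes of either strand are in capitals.
Hist1h2ag: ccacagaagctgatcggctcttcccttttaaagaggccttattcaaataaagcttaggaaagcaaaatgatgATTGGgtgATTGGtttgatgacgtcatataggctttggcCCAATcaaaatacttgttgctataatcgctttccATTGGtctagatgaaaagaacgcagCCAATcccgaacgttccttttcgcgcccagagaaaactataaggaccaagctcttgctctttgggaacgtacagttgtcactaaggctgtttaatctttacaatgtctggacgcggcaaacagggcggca
It holds 5 CCAAT boxes, counting CCAAT and ATTGG. RefSeq promoters were matched for 61 of the 70 annotated genes. CCAAT stood in 18 of 18 H2A, 16 of 16 H2B, 10 of 10 H3, 5 of 5 H1 and 3 of 12 H4 promoters, and in 37.4% of all 32851 promoters of the same length. TATAAA, searched on both strands, stood in 11 of 18 H2A, 8 of 16 H2B, 4 of 10 H3, 3 of 5 H1 and 8 of 12 H4 promoters, and in 13.6% of all. The octamer ATTTGCAT, likewise on both strands, stood in 7 H2A and 6 H2B promoters but in no H1, H3 or H4 promoter, against 1.74% of all. Head-to-head genes share these bases, so their counts are not separate, and a match describes letters only.

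Among the H2B genes, 3 were 4-fold higher on day 6 than in MEF by the mean over each gene's exons. Hist2h2bb had 75.7 RPKM on day 6 and 2.33 in MEF, while ESC had 0.704, iPSC 2.04, brain NSC 0 and the Tomato-positive and Tomato-negative OSKM NSC 0.829 and 1.56. The exon of Hist2h2bb overlaps Gm42743, and 100% of its 50-base words also occur in other genes. Hist1h2bb had 52.7 RPKM on day 6, 1.37 in MEF and 0.316 to 2.43 in the other 5. Both were high on day 6 only, and Hist1h2bj was the third. The H2B gene with the highest level in each library but day 6 was Hist1h2bc, at 58.6 RPKM on day 6 and 52.7 in MEF, while ESC had 49.2, iPSC 36.5, brain NSC 70.2 and the Tomato-positive and Tomato-negative OSKM NSC 58.2 and 62.5. Its level thus varied little, and on day 6 Hist2h2bb was above it. Hist1h2bk (14.5 RPKM in MEF, 38.9 on day 6), Hist1h2bg (11.0 and 32.6) and Hist1h2bn (8.98 and 26.4) were higher on day 6 but under 4-fold. For Hist1h2bg the reads numbered 307 in MEF and 928 on day 6, a ratio of 2.96 with an interval of 2.60 to 3.38.

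H3 and H4 form the tetramer at the centre of the nucleosome. Every one of the 12 H3 genes was highest on day 6, between 2.36 and 7.44 RPKM, where MEF held 0.292 to 1.64 RPKM and ESC 0 to 1.47. The 4 that passed 4-fold were led by Hist1h3e, at 6.45 RPKM on day 6 and 0.292 in MEF, while ESC had 0.117, iPSC 0.474, brain NSC 0.0886 and the Tomato-positive and Tomato-negative OSKM NSC 0.315 and 0.342. Its reads numbered 11 in MEF and 248 on day 6, so these levels rest on few reads. Hist2h3b followed with 0.501 RPKM in MEF and 7.44 on day 6. Of the H4 genes, Hist1h4d stood apart with 66.0 RPKM on day 6 and 1.92 in MEF, while ESC had 3.41, iPSC 2.28, brain NSC 3.77 and the Tomato-positive and Tomato-negative OSKM NSC 2.81 and 4.06. Hist1h4k had 2.14 RPKM in MEF and 18.1 on day 6, with 260 reads on day 6 against 30. The other H4 genes reached at most 8.10 RPKM on day 6.

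H1 is the linker histone that binds DNA between nucleosomes, and its genes did not move together. Hist1h1e had 44.9 RPKM on day 6 and 1.87 in MEF, while ESC had 1.73, iPSC 0.738, brain NSC 2.57 and the Tomato-positive and Tomato-negative OSKM NSC 1.62 and 2.48. The exon of Hist1h1e overlaps exons of Gm11398 and Hist1h2be. Hist1h1b rose from 1.76 to 21.7 RPKM, on 59 and 742 reads, a ratio of 12.3 with an interval of 9.43 to 16.3. Both were high on day 6 only, as were Hist1h1a (0.416 RPKM in MEF and 8.15 on day 6) and Hist1h1d (0.651 and 5.79). Hist1h1c went the other way, with 17.6 RPKM on day 6 and 36.7 in MEF, while ESC had 21.8, iPSC 12.0, brain NSC 56.7 and the Tomato-positive and Tomato-negative OSKM NSC 31.0 and 35.8. Its reads gave a day 6 to MEF ratio of 0.480 (0.448 to 0.514), which is under the 4-fold threshold. Hist1h1c was the highest H1 gene in every library but day 6. Hist1h1t, the testis H1, stayed at or under 1.15 RPKM.

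Against both pluripotent lines, 27 of 61 tested genes were 4-fold higher on day 6 and none lower, where the background was 3.47% higher and 6.7% lower. They were 17 H2A, 4 H1, 3 H3, 2 H2B (Hist2h2bb and Hist1h2bb) and 1 H4 gene (Hist1h4d). Against every other library at once the count was 26 of 63 higher and none lower, beside 1.45% and 0.519% of all genes. The filter bears on these counts too, since 25 of the 61 and 20 of the 63 genes reached 2 RPKM only on day 6. Of the 36 and 41 that reached it on both sides of the comparison, 16 and 17 were 4-fold higher on day 6. These comparisons share the day 6 library with the one against MEF and are not separate evidence. In all, 57 of the 68 genes had their highest value on day 6, where 12.4% of all 26074 genes with a value above 0 did.

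The remaining genes with a higher value elsewhere were 10. Of these, 5 are on the list of members known to give polyadenylated mRNA (Hist1h1c, Hist1h2bc, Hist2h2be, Hist3h2a and Hist3h2ba), as are 6 of all 68 genes. Also among the 10 were Hist4h4, Hist1h2ba and Hist3h2bb-ps (at most 0.256 RPKM), which stayed under 2 RPKM in every library. Hist3h2ba, an H2B gene of chromosome 11, had 0.105 RPKM on day 6 and 2.61 in MEF, while ESC had 0.392, iPSC 0.638, brain NSC 1.01 and the Tomato-positive and Tomato-negative OSKM NSC 20.4 and 10.0. Its level was thus highest in both OSKM NSC and lowest on day 6. Hist3h2a, its H2A neighbour on the chromosome, had 14.5 and 10.4 RPKM in the OSKM NSC and 2.88 to 7.87 RPKM elsewhere. Hist1h4i had 22.7 and 10.9 RPKM in the OSKM NSC, 0.966 in brain NSC, 9.50 in iPSC, 7.98 on day 6, 4.47 in MEF and 2.86 in ESC. Brain NSC held the highest value of Hist1h2bc, Hist1h1c, Hist1h2bl (20.9 RPKM), Hist2h2be (3.90) and Hist4h4 (0.785). Hist1h2ba, the testis H2B, was at 1.51 RPKM in iPSC and 1.29 on day 6 and at or near 0 in the rest. Hist2h2aa1, the sixth gene on the list, had 4.04 RPKM in MEF and 120 on day 6.

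**Figure D5:**
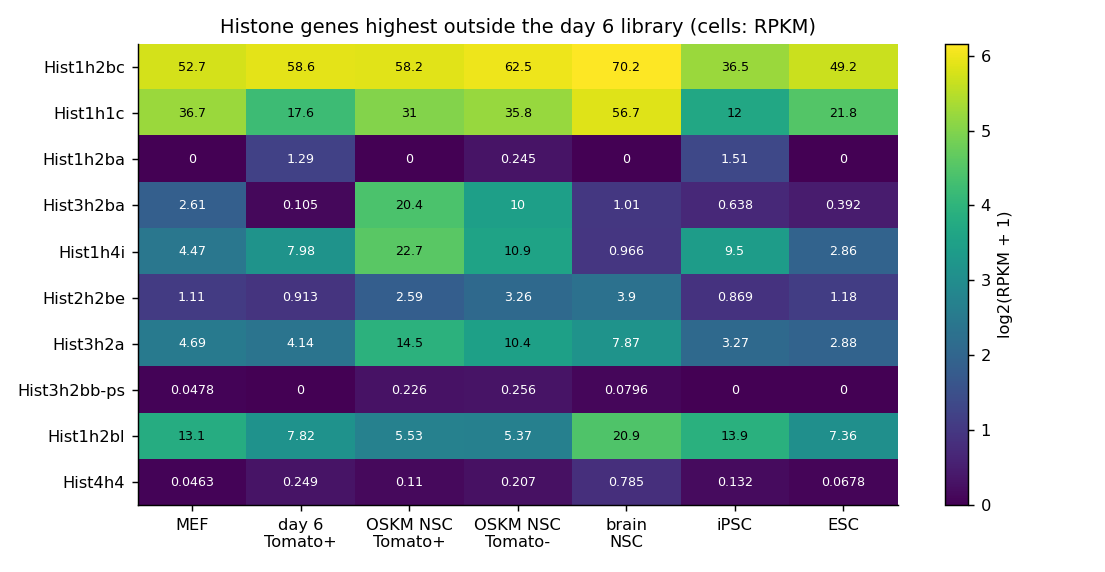
RPKM (numbers) and log2(RPKM + 1) (colours) of the 10 genes with a higher value in another library than on day 6, by library. Hist3h2ba is at 20.4 and 10.0 RPKM in the OSKM NSC and at 0.105 RPKM on day 6.

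In the OSKM NSC the day 6 pattern was gone. Compared with day 6, both OSKM NSC libraries were 4-fold lower in 30 of 63 tested genes and higher in 1, Hist3h2ba, where 5.23% of all genes were lower and 8.54% higher. Of the 63 genes, 34 reached 2 RPKM only on day 6 and could only be lower in the OSKM NSC. Among the 27 that reached it on both sides, 10 were 4-fold lower. The 30 were 17 H2A, 4 H1, 4 H2B, 3 H3 and 2 H4 genes. Compared with MEF, none of 30 tested genes was 4-fold higher or lower in both, beside 3.81% and 7.66% of all genes. Hist3h2ba came closest, with a log2 ratio of 2.09 over both libraries. Compared with brain NSC, Hist3h2ba and Hist1h4i were higher in both OSKM NSC, with log2 ratios of 2.93 and 3.10, and none of the 29 tested genes was lower, beside 1.97% and 1.1% of all genes. Both genes were under 2 RPKM in brain NSC. Between Tomato-positive and Tomato-negative OSKM NSC none of 29 genes differed by 4-fold in either direction, beside 2.77% and 0.881% of all genes. Their ratios ran from -0.99 for Hist1h4m to 1.00 for Hist1h4i, and 23 of the 29 lay below 0. The filter bears on this count, since 8 genes reached 2 RPKM only in the Tomato-negative library and 1 only in the Tomato-positive one. Of the 20 that reached it in both, 15 lay below 0 and 5 above.

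At the 4-fold rule, under which iPSC and ESC have to agree, no tested gene set the steady-state lines apart from MEF. The H2A sum was 66.4 RPKM in iPSC, 8.33 in ESC and 26.4 in MEF, so iPSC and ESC lay on opposite sides of MEF. No H3 gene reached 2 RPKM in MEF, ESC, brain NSC or Tomato-positive OSKM NSC, while 1 did in iPSC and 2 in Tomato-negative OSKM NSC. None of 39 tested genes was 4-fold higher or lower in both iPSC and ESC, beside 7.44% and 9.01% of all genes, and none of 26 in brain NSC, beside 7.24% and 13.3%. The largest distances were -1.26 for Hist3h2ba in the pluripotent lines and -1.74 for Hist2h2bb in brain NSC. Between iPSC and ESC, 10 of 36 tested genes were 4-fold higher in iPSC and none lower, beside 1.29% and 4.39% of all genes. They were 9 H2A genes and Hist1h2bj, with levels in iPSC of 3.33 RPKM for Hist1h2ag and 6.18 RPKM for Hist1h2bj. The same genes were at 0 and 0.474 RPKM in ESC. All 10 were among the 22 tested genes that reached 2 RPKM only in iPSC, so their direction was fixed by the filter, and none of the 14 that reached it in both lines passed 4-fold. The values are low, and the 0 of Hist1h2ag in ESC allows up to 3 reads.

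The genes that make and handle histone mRNA and histones were compared as fixed lists, beside the 8.23% of all tested genes that were 4-fold higher on day 6 than in MEF and the 16.1% that were lower. Of 17 measured genes for transcription and 3′ end formation of histone mRNA, none was 4-fold higher on day 6 than in MEF and 1, the U7 snRNP protein gene Lsm10 (42.9 to 9.64 RPKM), was lower. Slbp, whose product binds the stem-loop, had 90.3 RPKM on day 6 and 39.1 in MEF, while ESC had 124, iPSC 154, brain NSC 37.0 and the Tomato-positive and Tomato-negative OSKM NSC 123 and 79.3. Slbp on day 6 therefore lay inside the range of the other libraries. Npat, the coactivator of histone genes at the histone locus body, had 20.4 RPKM on day 6, 13.6 in MEF and 21.9 to 26.6 in the others, and Casp8ap2, also of that body, had 16.4, 5.11 and at least 9.77. Of 14 chaperone and import genes, only Nasp, a chaperone of H3 and H4, was 4-fold higher (56.0 to 311 RPKM), and iPSC held more (511 RPKM). A single gene in a list of this size is close to the share over all genes. Of the 15 measured replication-independent histone genes, 12 were tested, none was higher and 1, H2afy2, a macroH2A gene, was lower (71.5 to 12.7 RPKM).

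Among 25 genes of DNA synthesis, 12 were 4-fold higher on day 6 than in MEF and none was lower, beside 8.23% and 16.1% of all tested genes. Pola1, the catalytic subunit of DNA polymerase alpha, had 6.85 RPKM in MEF and 57.1 on day 6, Cdc6 3.71 and 30.1, Mcm2 27.1 and 178, and Mcm6 48.6 and 294. The pluripotent lines held more Mcm2, which had 337 RPKM in iPSC and 219 in ESC. Against iPSC and ESC together none of the 25 was higher on day 6 and 1 was lower, beside 3.47% and 6.7% of all tested genes, while 17 H2A genes were higher there. The summed RPKM of the list was 2975 on day 6, 869 in MEF, 4193 in ESC and 3939 in iPSC.

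Of 18 listed RNAs that lack the usual poly(A) tail, 4 had values. On day 6, 2 of these were 4-fold higher than in MEF and none was lower, beside 8.23% and 16.1% of all genes. Gm42418, which overlaps ribosomal RNA sequence, had 153285 RPKM on day 6 and 501 in MEF, while ESC had 507, iPSC 1072, brain NSC 1001 and the Tomato-positive and Tomato-negative OSKM NSC 516 and 1174. Gm26917 had 7.49 RPKM in MEF and 646 on day 6, with 59.5 in iPSC and 1.32 to 8.96 in the rest. The other two did not pass 4-fold, with Malat1 at 149 RPKM in MEF and 457 on day 6 and Neat1 at 19.3 and 6.89. Gm42418 and Gm26917 were high in the same library as the H2A genes, and their part in the H2A values was not tested.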

How the data were processed

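The authors deposited 1 table of RPKM per Ensembl exon, with 1 column for each of the 7 libraries. Per the submitters' processing notes, the genome build was mm10, and the tools included TopHat2 2.0.10, CASAVA 1.8.2, bedtools and Bowtie; read length, strand and the handling of reads with several matches are not given in the sources used here. Per the labels' protocols, libraries were made with a TruSeq RNA kit.

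Exons were matched by ID to GENCODE M21 (270168 of 279252, 96.7%), and the value of a gene is the mean of its exon RPKM weighted by exon length. Ratios are log2((a + 1)/(b + 1)), a pseudocount of 1 RPKM. Genes at 2 RPKM or more in a compared library were tested, and a call needs 4-fold for every pair of libraries, in 1 direction. Depth is the number of megareads at which RPKM times length gives whole reads, within 0.01 read plus 1e-05 of the value. It held for 96.2% of all exons in every library but for 46 of 85 exons of the histone genes, so exon bounds used by the authors may differ from GENCODE's there. Read ratios have 95% exact intervals, for genes with whole reads only, and cover counting error alone. Python 3.11.15 with numpy 2.4.6 and pandas 2.3.3 was used, and the calling rule was tested on simulated data.

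The genes named are the marker genes, the highest of each class in each library, the extremes of each comparison, genes near the threshold, listed polyadenylated genes, genes higher elsewhere and the largest changes of each fixed list. Members and lists were chosen with earlier results of these data known. Alternatives were other scalings, pseudocounts, floors, folds and exon choices.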

Additional observations from a re-analysis of the deposited data

How the results depend on the processing

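Each value rests on 1 library, and reads shared between copies and low read numbers both limit single genes. Counting only exons with whole reads left 33 tested genes for the day 6 comparisons and gave 15 genes past 4-fold against MEF, 12 against iPSC and ESC, 12 against every other library, 15 for OSKM NSC against day 6, 0 for OSKM NSC against brain NSC and 3 for iPSC against ESC; fewer genes enter by construction. At 2-fold the counts were 53, 47, 44, 52, 5 and 24 in that order, and 1, 3 and 7 for iPSC and ESC, OSKM NSC and brain NSC against MEF. At 8-fold the counts were 0 for OSKM NSC against brain NSC and for iPSC against ESC. The last was 18 and 0 at pseudocounts of 0.25 and 4 and 2 at a floor of 8 RPKM. Pseudocount 4 gave 0 for OSKM NSC against brain NSC, and 0.25 gave 5 for brain NSC against MEF. Leaving out 1 library gave 27 to 41 for day 6 against the pluripotent lines, 41 being without iPSC, and 0 to 2 for OSKM NSC against MEF, 2 being without the Tomato-negative library. The share of all genes that pass is not given for these other settings. The counts therefore show how the rule moves them and do not set the histone genes against other genes.

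Medians near 0 changed sign. For OSKM NSC against brain NSC (0.17) they were -0.0303 at equal totals, -0.0305 at equal totals without Gm42418 and the histone genes, -0.0537 with median-of-ratios scaling, -0.19 at a floor of 8, -0.00844 with whole-read exons and -0.29 to 0.36 leaving out a library. Against MEF, the pluripotent median ran from -0.85 to 0.56 leaving out a library; the OSKM NSC median was -0.23 with median-of-ratios scaling and -0.0493 with whole-read exons; the brain NSC median was -0.14 with median-of-ratios scaling and -0.25 and -0.24 at a floor of 0.4 or none. The cause was not tested. Scalings moved all ratios of a comparison by -0.43 to 0.35 log2 units.

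Summed RPKM, in the order MEF, both OSKM NSC (Tomato-positive first), brain NSC and ESC, became 224, 228, 318, 331 and 116 at equal totals; 221, 225, 313, 326 and 114 at equal totals without Gm42418 and the histone genes; 272, 209, 255, 273 and 130 with median-of-ratios scaling; 260, 283, 296, 319 and 172 with the highest exon; 221, 240, 251, 255 and 136 without overlapping exons; and 172, 146, 177, 205 and 96.4 with whole-read exons. The day 6 sum was 23730, 24138, 9904 and, without pseudogenes, 19612 under those that moved it, and the iPSC sum 246, 298, 246, 162 and 243. The day 6 sum stayed the highest throughout. The planned choice of 1 gene per identical protein was not run, since it was tied to a protein table that is not used here. No paired analysis was possible because each group has 1 library.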
